A study of Homo sapiens with 8 samples.

Results

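In SCC9 cells, 844 sites of the chromatin remodeller CHD4 recurred in libraries without DOC1 and held no peak in any library with DOC1. They were chosen from the deposited peak lists of 6 CHD4 libraries. Merging all peaks with an overlap of 1 bp or more gave 18808 regions, and a site was kept if 2 or 3 lacZ libraries had a peak there and no DOC1 library did. The sites are 4.49% of all regions and 21.5% of the 3932 regions that recurred in the lacZ libraries. Presence of peaks in these lists made the choice, so the counts describe the sites and no test was run on them. A missing peak means that nothing there reached the threshold of the peak caller, which is weaker than an absence of CHD4.

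SCC9 is an established cell line from a squamous carcinoma of the tongue, grown with hydrocortisone in the medium of both groups. The lacZ group (labelled as lacking DOC1) and the DOC1 group (labelled as having it) each had 3 libraries of chromatin precipitated with an antibody to CHD4 and 1 with IgG. No result here uses the IgG libraries directly. The design asks how binding of the NuRD complex differs when its subunit DOC1 is lost. How lacZ and DOC1 were brought into the cells, and whether the numbered libraries came from separate cultures, is not given in the sources used here. All libraries came from 1 line.

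NuRD joins nucleosome remodelling by CHD4 or its relative CHD3 with removal of acetyl groups from histones by HDAC1 and HDAC2. Its other subunits, among them the MTA, GATAD2, MBD and RBBP proteins, hold the enzymes together and link them to chromatin. DOC1, the product of CDK2AP1, is a small subunit. In epithelial cells the complex is known for acting on genes of cell identity and of the epithelial-mesenchymal transition, the change from attached epithelial cells to more motile ones.

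The lists held 7027, 2812 and 4723 peaks in lacZ 1, lacZ 2 and lacZ 3, and 7834, 3448 and 11032 in DOC1 1, DOC1 2 and DOC1 3. Summit reads, the number of reads over the highest point of a peak, were solved from each peak's fold enrichment and p-value. Their median was 38, 27 and 22 in the lacZ lists and 15, 15 and 34 in the DOC1 lists. Reads at called summits thus differed between libraries of 1 group. These reads also depend on which peaks were called and are not a measure of depth, whose part in the presence of a weak site was not tested.

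Most of the 844 sites were shared by lacZ 1 and lacZ 3. This pair held 452 sites (53.6%), all 3 lacZ libraries held 221 (26.2%), lacZ 1 and lacZ 2 held 130 (15.4%), and lacZ 2 and lacZ 3 held 41 (4.86%). Absence from the DOC1 lists was least common among regions of all 3 lacZ libraries, at 11.8% of 1874. It was 26.3% of the 495 regions of lacZ 1 and lacZ 2, 30.9% of the 1465 of lacZ 1 and lacZ 3, and 41.8% of the 98 of lacZ 2 and lacZ 3. The sites made up 11.6%, 14.4% and 15.7% of the regions of lacZ 1, lacZ 2 and lacZ 3.

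The number of sites moved with single libraries on both sides. Without lacZ 1 it was 265, without lacZ 2 it was 672 and without lacZ 3 it was 353. In each case both remaining lacZ libraries had to hold a peak. Without DOC1 3, which had the longest list, it rose to 1695. In the mirrored direction, 2159 regions recurred in 2 or 3 DOC1 libraries with no lacZ peak, which is 11.5% of all regions and 41.5% of the 5199 that recurred with DOC1.

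Regions just outside the rule were of 2 kinds. On the DOC1 side, 1024 regions recurred in lacZ and held a peak of a single DOC1 library, which was DOC1 3 in 826 of them, DOC1 1 in 191 and DOC1 2 in 7. Those DOC1 peaks were seldom at the threshold. Only 28 of the 1024 had a −log10 q under 3, and the median was 6.21 in DOC1 3 and 6.15 in DOC1 1. On the lacZ side, the larger of the 2 kinds, 2306 regions had no DOC1 peak and a peak in 1 lacZ library alone, 1479 of them in lacZ 1. Among the 844 sites, 49 had at least 1 peak with a −log10 q under 3, and in 2 sites every peak was that weak.

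Within the lacZ lists these were sites of middle strength by fold. By significance they were lower, with a median −log10 q of 6.58, 5.98 and 6.55 in lacZ 1, lacZ 2 and lacZ 3. The whole lists had 6.65, 7.12 and 7.27. Strength is given below as the percentile of a peak's fold enrichment within its own list. The median site stood at the 55.5th percentile of lacZ 1, the 48.0th of lacZ 2 and the 54.8th of lacZ 3. Regions that recurred in lacZ and also held a DOC1 peak stood at the 68.8th, 54.4th and 58.9th percentiles. The median fold was 5.88, 6.09 and 6.51 at the sites and 6.47, 6.38 and 6.59 at the regions with a DOC1 peak. The folds thus differed little, while the order was the same in each list. Regions in all 3 lacZ libraries were a smaller part of the sites than of the regions with a DOC1 peak. The 2 classes were not matched for this, so their order is mixed with recurrence.

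Sites in all 3 lacZ libraries were stronger than those in 2. Their median percentile was 73.0 in lacZ 1, 53.4 in lacZ 2 and 63.3 in lacZ 3, where sites in 2 libraries had 50.5, 42.9 and 50.3. In lacZ 1 and lacZ 3 the sites in all 3 libraries stood above the regions with a DOC1 peak. Passing the threshold 3 times favours strong peaks, so this order is partly built into the rule. Very strong sites were few. The upper 10% of the list by fold held 45 of the 803 sites with a peak in lacZ 1 (5.60%), 7 of 392 in lacZ 2 (1.79%) and 28 of 714 in lacZ 3 (3.92%), where regions with a DOC1 peak reached 20.8%, 13.2% and 16.2%. Of the 100 highest folds in each list, 1, 1 and 2 belonged to the sites.

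**Figure D1:**
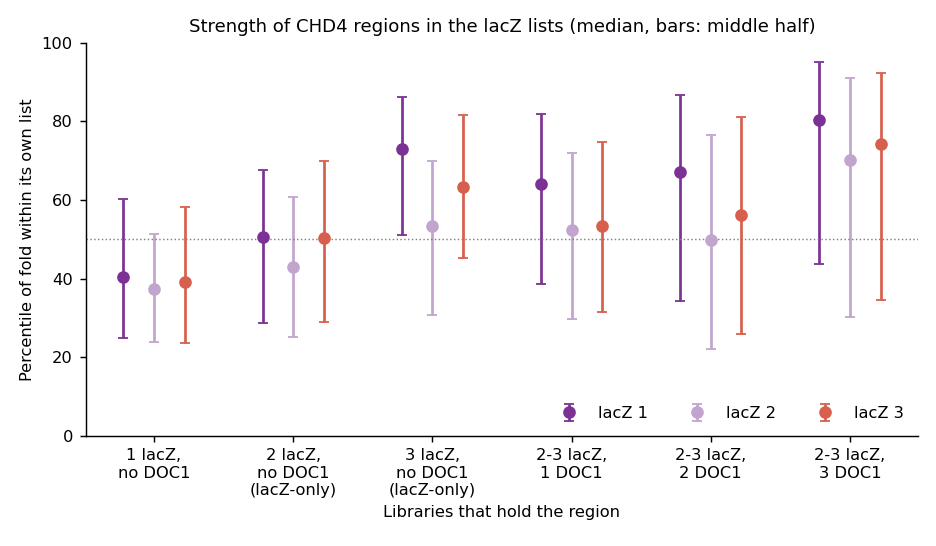
Percentile of fold within its own lacZ list (y axis) for regions grouped by the libraries that hold them (x axis), with points for medians and bars from the lower to the upper quartile. Sites in 2 lacZ libraries and no DOC1 library lie near the middle of each list, and regions in all 3 DOC1 libraries are highest, at the 80.2nd, 70.2nd and 74.3rd percentiles.

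The sites had fewer reads and a lower local background than regions with a DOC1 peak. The median summit held 33, 22 and 19 reads in lacZ 1, lacZ 2 and lacZ 3, against 46, 29 and 25. Over the whole lists it held 38, 27 and 22. The local background under the summits of the sites, in reads after scaling to the control, was 1.88, 1.42 and 1.36. At the regions with a DOC1 peak it was 2.23, 2.00 and 2.00. Peaks of the sites were also narrower than those of regions with a DOC1 peak, with a median width of 377, 287.5 and 290.0 bp against 488, 340.0 and 348 bp. The merged sites were 256 to 1153 bp long with a median of 431 bp, while regions with a DOC1 peak had a median of 650.0 bp. Merging more lists makes a region longer, so the lengths of these classes are not on equal terms. Reads and widths were not matched for the number of lacZ libraries either. Sites in all 3 lacZ libraries had median summits of 37, 22 and 20 reads.

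Peaks were joined into a site by overlap, so nearness of their summits is partly built into the rule. The median distance between the summits of 2 lacZ libraries was 59 bp for lacZ 1 and lacZ 2 (351 sites), 64 bp for lacZ 1 and lacZ 3 (673 sites) and 60 bp for lacZ 2 and lacZ 3 (262 sites). The largest distances in these pairs were 641, 719 and 610 bp. At regions with a DOC1 peak the medians were 53, 58 and 51 bp. Summits lay within 50 bp of each other at 43.3%, 42.6% and 41.2% of the sites in the 3 pairs, and at 48.5%, 44.6% and 49.9% of the regions with a DOC1 peak. In the mirrored class of the DOC1 lists the medians were longer, at 74, 82 and 90.5 bp.

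The strongest site, judged by its lowest percentile over the lists that hold it, lay on chromosome 1 (232980342 to 232980934, build hg19 as for all positions here). Its fold was 16.99, 13.5 and 14.1 in lacZ 1, lacZ 2 and lacZ 3, with 76, 40 and 34 reads at the summit before scaling. The local background, in scaled reads, was 1.19, 1.07 and 1.02. The 3 summits lay within 33 bp, and the nearest DOC1 peak was 23.9 kb away, in DOC1 3. This site was in the upper 2% of each list, at ranks 35, 55 and 75 by fold.

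The 7 next sites present in all 3 lacZ libraries were weaker, and 5 of them stood over 30 kb from a DOC1 peak. A site on chromosome 2 (27357509 to 27358180) had folds of 10.5, 11.3 and 11.8 and summits of 46, 33 and 28 reads, with the nearest DOC1 peak at 76.7 kb. A site on chromosome 17 (13251225 to 13251892) had folds of 10.6, 10.1 and 10.3 and the nearest DOC1 peak at 119.0 kb. These were followed by sites on chromosome 3 (58257722 to 58258171, DOC1 peak at 33.6 kb) and chromosome 19 (45829642 to 45830077). The site on chromosome 19 had a DOC1 1 peak only 0.452 kb away.

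A site on chromosome 2 (8738470 to 8738944) had no other CHD4 region of any kind within 100 kb, and its nearest DOC1 peak was 635 kb away. Its fold was 11.8, 9.03 and 13.4 in lacZ 1, lacZ 2 and lacZ 3, from 56, 26 and 32 reads. The last 2 of the 8 were on chromosome 18 (56524019 to 56524375), where the fold was 8.54, 9.01 and 9.69, with a DOC1 3 peak 6.33 kb away, and on chromosome 4 (40701574 to 40702052), where it was 11.2, 10.6 and 8.99.

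Sites held by a pair of lacZ libraries reached lower folds. For lacZ 1 and lacZ 2 the strongest was a site of chromosome 22 (18553812 to 18554191) with folds of 10.0 and 8.37. For lacZ 1 and lacZ 3 it was on chromosome 15 (71587793 to 71588448), with folds of 8.51 and 10.2 and the nearest DOC1 peak 403 kb away. Another site of this pair, at rank 3 by lowest percentile, lay on chromosome 19 (2385406 to 2385828). Its folds were 8.19 and 12.3, with both summits within 2 bp. For lacZ 2 and lacZ 3 the strongest was on chromosome 6 (31160226 to 31160482), with folds of 8.89 and 8.33 and 40 and 30 reads. That site is missing from lacZ 1, the longest of the lacZ lists.

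Many sites lay close to a DOC1 peak without touching it. The median distance from a site to the nearest DOC1 peak was 16.1 kb. A DOC1 peak lay within 0.5 kb of 65 sites (7.70%), within 1 kb of 107 (12.7%), within 10 kb of 347 (41.1%, 95% Wilson interval 37.8 to 44.5%, which covers counting error only) and within 100 kb of 731 (86.6%). The nearest peak was one of DOC1 3 for 532 sites (63.0%), of DOC1 1 for 243 and of DOC1 2 for 69, while these lists hold 49.4%, 35.1% and 15.5% of the DOC1 peaks. When each list was cut to its best 2812 peaks, the share with a DOC1 peak within 10 kb was 24.2%. Nearness was general among CHD4 regions. Another region of any kind lay within 10 kb of 49.6% of the sites and 49.4% of the mirrored regions. For recurrent lacZ regions with a DOC1 peak it was 58.7%.

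The mirrored sites lay farther from peaks of the other group. For the 2159 regions recurrent with DOC1 and free of lacZ peaks, the median distance to a lacZ peak was 31.1 kb, and 29.2% had one within 10 kb. The lacZ lists hold fewer peaks to be near, so the distances of the 2 classes do not compare like with like. By lacZ pattern, the median distance to a DOC1 peak was 17.2 kb for sites in all 3 lacZ libraries, 16.97 kb for lacZ 1 and lacZ 2, and 15.2 kb for lacZ 1 and lacZ 3. It was shortest, at 11.3 kb, for the 41 sites of lacZ 2 and lacZ 3, of which 20 had a DOC1 peak within 10 kb (48.8%, 95% Wilson interval 34.3 to 63.5%).

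**Figure D2:**
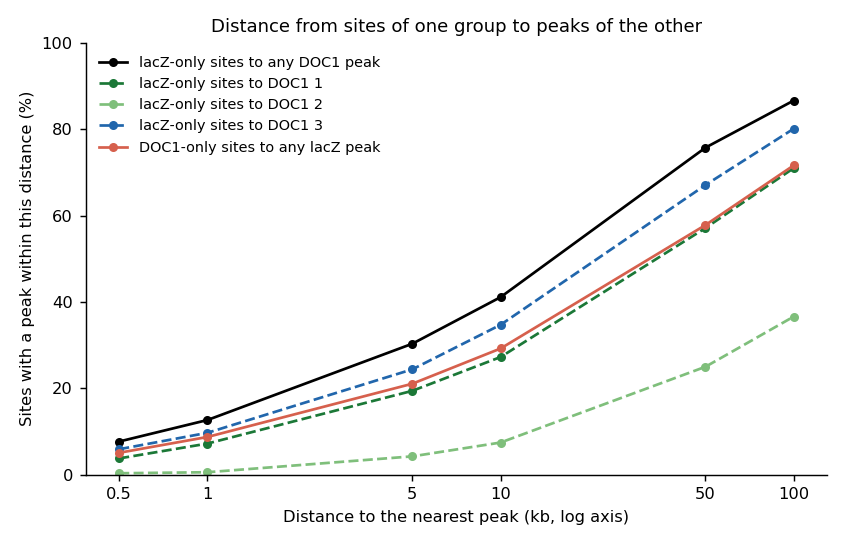
Share of sites (y axis, percent) with a peak of the other group within a given distance (x axis, kb, log scale). Of the lacZ-only sites 41.1% had a DOC1 peak within 10 kb, 34.7% counting DOC1 3 alone and 7.46% counting DOC1 2 alone, and 29.2% of the DOC1-only sites had a lacZ peak that near.

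A few sites were far from any DOC1 peak. The farthest lay on chromosome X (114795151 to 114795607), 2.68 Mb from a DOC1 peak, with folds of 4.81 in lacZ 1 and 6.57 in lacZ 3. A site on chromosome 21 (32738898 to 32739386) was 1.15 Mb away and was the strongest of the 5 farthest. Its fold was 8.07 in lacZ 1, 9.03 in lacZ 2 and 10.2 in lacZ 3. The other 3 were 1.83 Mb away on chromosome 13 (80510549 to 80511026), 1.08 Mb away on chromosome 18 (64932896 to 64933308) and 935 kb away on chromosome 20 (59760635 to 59761030). The site on chromosome 20 had folds of 5.72, 5.45 and 3.89.

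The sites were scattered, with few groups. The median distance to the next such site was 489 kb, and 16.4% had another within 50 kb, against 47.5% for the recurrent lacZ regions with a DOC1 peak and 27.9% for the mirrored regions, which are both more numerous. Leaving out lacZ 1 gave 6.79%, leaving out lacZ 3 gave 8.78% and leaving out DOC1 3 gave 28.6%. The share thus moved with single libraries, and the cause was not tested. Joining sites up to 50 kb apart left 706 single sites, 62 pairs, 3 groups of 3 and 1 group of 5. CHD4 regions of other kinds surrounded most of them. The median site had 4 other regions within 100 kb, 82 sites (9.72%) had none, and 143 (16.9%) had 10 or more, while 24.1% of the regions with a DOC1 peak did.

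The group of 5 spanned 127 kb of chromosome 6 (27441613 to 27568864), inside the span taken here for the cluster of histone genes on its short arm. Whether a histone gene lies near these sites was not examined. The group held 10 CHD4 regions in all, of which 3 had a DOC1 peak. The site at 27470320 to 27471011 was present in all 3 lacZ libraries (folds of 8.60, 6.94 and 9.55), and the site at 27520812 to 27521530 had folds of 7.32, 6.98 and 8.11. The other 3 were present in 2 lacZ libraries each. The first of them, at 27441613 to 27442047, lay only 0.162 kb from a peak of DOC1 2.

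**Figure D3:**
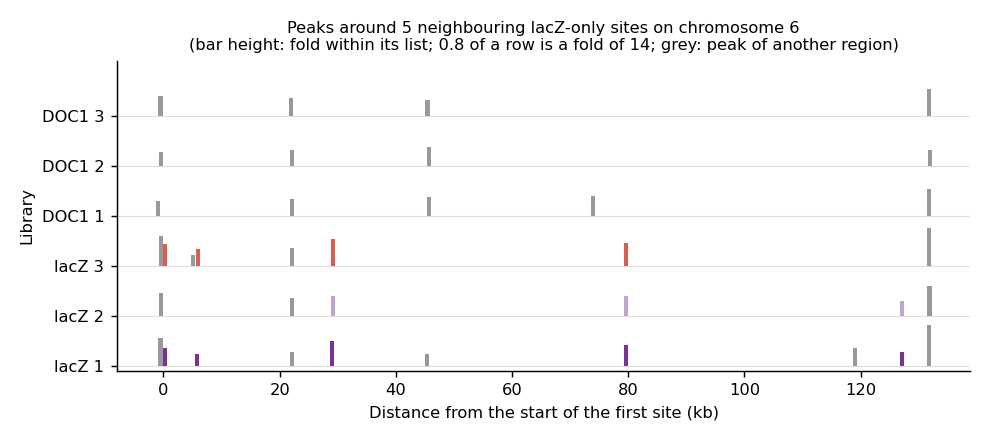
Peaks of each library (rows) around the group of 5 sites on chromosome 6, by distance in kb from the start of the first site (x axis). Coloured bars are peaks of the 5 sites and grey bars peaks of other regions, bar height is the fold within the peak's own list, and narrow peaks are widened to be visible. The 3 lacZ rows hold 10, 6 and 8 peaks, of which 5, 3 and 4 lie in other regions, and the DOC1 rows hold 5, 4 and 4 peaks, all of other regions.

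The next 4 groups were smaller. A group of 3 sites on chromosome 11 (19648418 to 19690372) spanned 8 CHD4 regions, 4 of them with a DOC1 peak. Another 3 on chromosome 7 (75879602 to 75930049) spanned 5 regions, 2 of them with a DOC1 peak, and 3 on chromosome 9 (131932550 to 131988192) spanned 6 regions, 3 of them with one. Among the 62 pairs, the one with the shortest span, on chromosome 10 (97067288 to 97068781), consisted of 2 sites only 0.671 kb apart, each present in all 3 lacZ libraries. Their folds were 8.29, 6.73 and 7.79 at the first site and 6.04, 7.06 and 8.99 at the second, with no other region between them and the nearest DOC1 peak 15.9 kb away.

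The share of recurrent lacZ regions that lacked a DOC1 peak varied by chromosome around the 21.5% of all. It was highest on chromosome 18, with 16 of 40 regions (40%, 95% Wilson interval 26.4 to 55.4%), and on chromosome 15, with 21 of 55 (38.2%, 26.5 to 51.4%). Chromosomes 10 (33 of 103, 32.0%), 12 (35 of 117, 29.9%) and 3 (57 of 196, 29.1%) also lay above. It was lowest on chromosome 20, with 27 of 217 (12.4%, 8.69 to 17.5%), and chromosome 17, with 52 of 359 (14.5%, 11.2 to 18.5%). These chromosomes were picked after their values were seen, and regions of a chromosome are not independent replicates.

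With each of the 6 libraries left out in turn, chromosomes 18, 15, 10, 12 and 3 stayed above the share of all chromosomes, and 17 and 20 below it. So did chromosomes 2, 7, 14 and 16 above it, and 8, 9 and 11 below it. Staying on 1 side is thus not particular to the chromosomes named, and the left-out settings share most of their lists. The level itself moved. All chromosomes gave 13.5% without lacZ 1 and 42.9% without DOC1 3. Chromosome 18 gave 25% without lacZ 1, chromosome 15 gave 22.6% without lacZ 3, chromosome 10 gave 58.8% without DOC1 3, chromosome 12 gave 16.9%, 18.4% and 54.2% without lacZ 1, lacZ 3 and DOC1 3, and chromosome 3 gave 50.8% without DOC1 3. Chromosome 20 gave 6.45%, 7.97% and 34.5% without lacZ 1, lacZ 3 and DOC1 3, and chromosome 17 gave 9.26% and 36.6% without lacZ 1 and DOC1 3. Chromosome 19, which is rich in genes, held 56 of the 844 sites (6.64%), close to its 6.77% of the recurrent lacZ regions with a DOC1 peak and above its 3.94% of the mirrored regions.

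**Figure D4:**
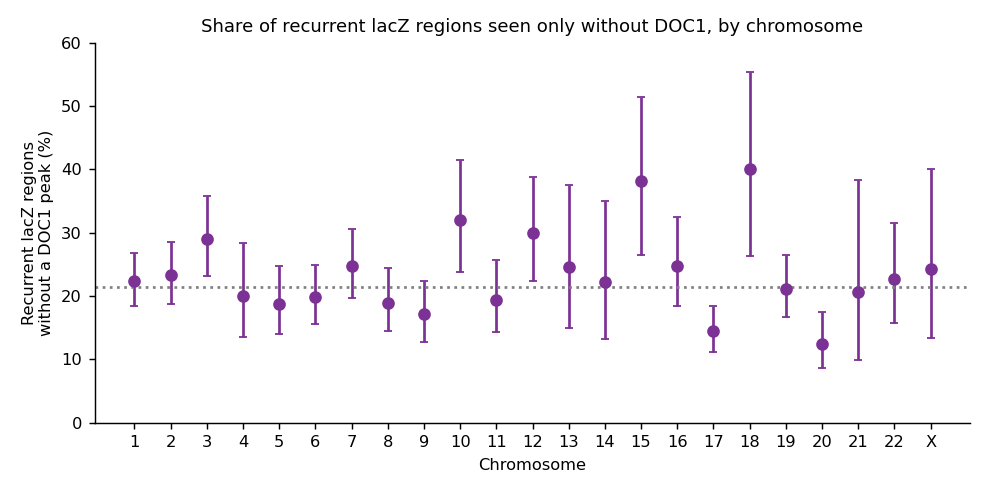
Share of the recurrent lacZ regions of each chromosome that held no DOC1 peak (y axis, percent), with 95% Wilson intervals that cover counting error only, and the share over all chromosomes (21.5%) as a dotted line. Chromosomes 18 (40%) and 15 (38.2%) are highest, and 20 (12.4%) and 17 (14.5%) lowest.

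Sites were then placed beside 88 loci of NuRD, of the epithelial-mesenchymal transition and of squamous cells, listed with earlier results of these data known. The positions of the loci are general knowledge of hg19 rounded to 10 kb, so nearness within 100 kb is given and not a place in an exon or promoter. In all, 52 sites lay within 100 kb of 29 loci. They were 27.2% of the 191 recurrent lacZ regions there and 6.40% of the 812 regions of any kind, beside 21.5% and 4.49% genome-wide. A nearby site is a position and does not show which gene, if any, CHD4 acts on.

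AP-1 loci, which encode the FOS, JUN and ATF transcription factors that respond to growth signals, held 5 sites near 4 of 7 loci, which were 5 of their 14 recurrent lacZ regions (35.7%). At JUN a site (59250566 to 59251231 on chromosome 1) was present in all 3 lacZ libraries with folds of 6.02, 5.26 and 6.80. A DOC1 3 peak lay 0.196 kb from it, so the locus was not free of CHD4 peaks with DOC1. FOSL1, an AP-1 member often raised in invasive squamous cells, had 2 sites within 20 kb, both in all 3 lacZ libraries. Their folds were 5.12, 6.62 and 5.55 at 65670207 to 65671075 and 6.77, 6.80 and 6.30 at 65677078 to 65677602 on chromosome 11, with DOC1 peaks at 2.34 and 1.77 kb. Single sites lay near FOSL2 (folds of 5.24 in lacZ 1 and 5.99 in lacZ 3) and JUNB (5.24 in lacZ 1 and 6.40 in lacZ 2).

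At loci of the epithelial-mesenchymal transition and of the TGF-beta response, sites were 22.2% of the 18 recurrent lacZ regions. They were 4.60% of the regions of any kind there. Both shares are close to the 21.5% and 4.49% genome-wide. The site near SMAD7, an inhibitor of TGF-beta signalling, lay at 46399600 to 46400083 on chromosome 18 with folds of 8.13, 5.13 and 7.98 and the nearest DOC1 peak at 23.1 kb. Sites near SMAD3, which carries the TGF-beta signal to the nucleus, and TGFBI, a matrix protein induced by it, were weak, with folds of 5.11 and 5.19 and of 3.72 and 5.50 in lacZ 1 and lacZ 3. No site lay within 100 kb of SNAI1, TGFBR2 or ZEB2, which had 4, 2 and 1 recurrent lacZ regions. ZEB1, TWIST1, VIM, FN1, CDH2 and TGFB2 had no recurrent lacZ region and could hold no site.

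Epithelial loci held 5 sites near 5 of 12 loci, which were 5 of 18 recurrent lacZ regions (27.8%). A pair of sites near CLDN7, a tight junction protein, had folds of 6.69 in lacZ 2 and 6.97 in lacZ 3 and of 5.90 in lacZ 1 and 6.92 in lacZ 3, with DOC1 peaks at 13.6 and 19.4 kb. One site (68692783 to 68693240 on chromosome 16) lay within 100 kb of both CDH3 and CDH1, which encode P- and E-cadherin, with folds of 6.12 in lacZ 1 and 5.03 in lacZ 2. The splicing regulator ESRP2 had a site with folds of 6.66 in lacZ 2 and 7.71 in lacZ 3, and the adhesion receptor CD44 one with folds of 6.74 in lacZ 1 and 5.88 in lacZ 3.

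Squamous loci held 5 sites among 22 recurrent lacZ regions (22.7%), close to the share of 21.5% genome-wide. The keratin II cluster on chromosome 12 had 2, both in all 3 lacZ libraries, with folds of 5.83, 5.37 and 8.11 and of 5.24, 8.04 and 6.16 and DOC1 peaks at 11.7 and 14.5 kb. The keratin I cluster on chromosome 17 had 2 sites, each in lacZ 1 and lacZ 3, with folds of 4.61 and 6.42 and of 6.04 and 4.29. The remaining site lay near NOTCH1, a receptor that drives squamous differentiation, with folds of 6.98, 5.74 and 6.98. No site lay near TP63, KLF4, KLF5 or the epidermal differentiation complex, which had 1, 1, 2 and 5 recurrent lacZ regions. SOX2 and PTHLH had none that could be a site.

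Receptors and attachment proteins followed. MET, the receptor of hepatocyte growth factor, had 3, and these were all 3 of the recurrent lacZ regions within 100 kb of its rounded position. Their folds in lacZ 1 and lacZ 3 were 5.45 and 5.81, 5.90 and 8.27, and 5.56 and 7.29, and DOC1 peaks lay 12.9, 17.4 and 44.5 kb away. The first of these sites lay outside the span taken for MET, and the others inside it. At EGFR, the epidermal growth factor receptor, 2 of the 3 recurrent lacZ regions were such sites, with folds of 6.64 and 5.93 and of 5.08 and 5.31. The sixth site of the receptor list lay near EPHA2, an ephrin receptor, and was weak (4.17 in lacZ 1 and 4.38 in lacZ 3). It was 1 of 8 recurrent lacZ regions there, and AXL, with 2 such regions, and AREG, with 1, had no site. The receptor list as a whole had 6 of 17 (35.3%). COL17A1, a collagen of the hemidesmosomes that anchor basal cells, had the strongest site of the adhesion list, with folds of 8.48 in lacZ 1 and 7.56 in lacZ 3 and the nearest DOC1 peak at 27.5 kb. LAMA3, a laminin subunit, had 1 site with folds of 5.83 in lacZ 1 and 6.83 in lacZ 3. ITGA3, a subunit of a laminin-binding integrin, had 1 among 3 recurrent lacZ regions, with folds of 5.02 and 5.13. ITGB4, DST and ITGB1, which had 4, 2 and 1 recurrent lacZ regions, held no site. LAMB3, ITGA6 and ITGA5 had no recurrent lacZ region and could hold no site. In the adhesion list as a whole, sites were 28.6% of the 14 recurrent lacZ regions, beside 21.5% genome-wide.

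**Figure D5:**
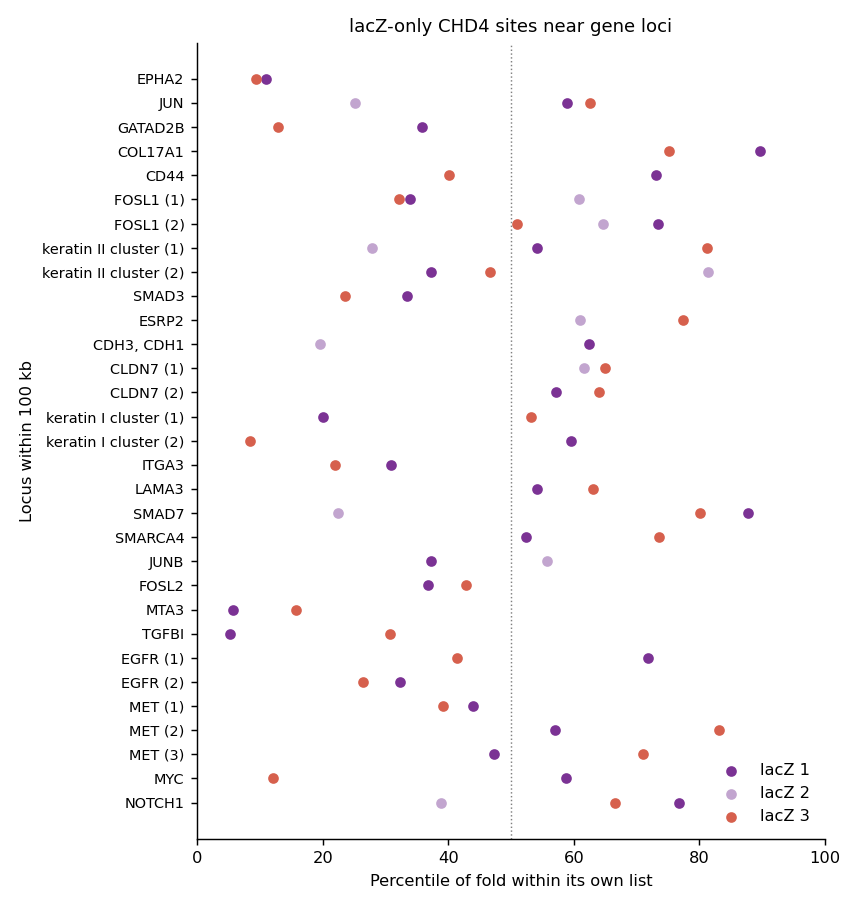
Percentile of fold within its own lacZ list (x axis) of lacZ-only sites within 100 kb of a gene locus (y axis), 1 point per lacZ library that holds the site, without the histone and MHC clusters. The highest point is lacZ 1 at COL17A1, at the 89.6th percentile, and percentiles of 1 site in 2 lists often lie far apart.

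At the 13 NuRD loci, 2 of 12 recurrent lacZ regions were such sites (16.7%, beside 21.5% genome-wide). They lay within 100 kb of MTA3 (folds of 3.79 in lacZ 1 and 4.83 in lacZ 3) and GATAD2B (5.19 and 4.65), both weak in their lists. None lay near CHD4, CHD3, GATAD2A, MTA2 or MBD3, which had 1, 1, 1, 2 and 4 recurrent lacZ regions. CDK2AP1 had no CHD4 region of any kind. MTA1, HDAC1, HDAC2, RBBP4 and MBD2 had no recurrent lacZ region, so they could hold no site. The SWI/SNF remodeller SMARCA4 had 1 site within 100 kb, with folds of 5.72 in lacZ 1 and 7.39 in lacZ 3. It was 1 of 3 recurrent lacZ regions (33.3%) at the SWI/SNF loci. The growth regulator MYC had 1 among 4 recurrent lacZ regions, with folds of 6.01 and 4.57. CCND1 and CDKN1A, with 2 and 1 such regions, held no site. The growth list as a whole had 1 of 7 (14.3%), below the 21.5% genome-wide. The span taken for the histone gene cluster on chromosome 6 held 11 of the sites, and that of the neighbouring MHC held 8. These were 11 of 33 and 8 of 34 recurrent lacZ regions. A place inside a span need not be at one of its genes. The 4 HOX clusters had no recurrent lacZ region, so they could hold no site.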

How the data were processed

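Peak lists of 6 CHD4 ChIP-seq libraries from SCC9 cells were used, 1 list per library. Per the submitters' processing notes, Trimmomatic 0.33, BWA 0.7.12-r1039, SAMtools 1.2 and MACS2 2.1.1.20160309 were used with hg19 (GRCh37). Which read filters and which control sample went into peak calling is not given in the sources used here. As deposited, the fold is a ratio, read here as the summit's scaled reads plus 1 over the local background plus 1. Deposited significance is the −log10 of the p-value and q-value, and the deposited score is 10 times the −log10 q without its decimals. These were compared only within a list.

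Peaks overlapping by 1 bp were merged into regions. Distances are gaps between region edges, and positions count from 1. Summit reads and local background were solved from fold and p-value, taking the fold as pileup plus 1 over background plus 1, the p-value as a Poisson tail, and 1 scaling factor per library (0.476, 0.671 and 0.809 for lacZ 1 to 3, 1, 1 and 0.562 for DOC1 1 to 3). A whole number of reads matched within 0.002 reads, or more in proportion where the fold was above 5, for 100% of peaks in each list. The solving and merging steps were tested on simulated data. Reads are not independent molecules, and total depth per library was not reconstructed.

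Groups came from the sample titles. The sites, lists and loci were chosen with earlier results of these data known. Named sites are, by lowest percentile of fold over the lists that hold them, the 8 best in all 3 lacZ libraries and the best of each pair (4 per pair were ranked, and 1 or 2 are described), the 5 groups with most sites (ties taken by shortest span), the 5 sites farthest from DOC1 peaks and sites near loci. Of the 88 loci, 79 are single genes whose chromosome and order were checked against the RefSeq gene table (GRCh38), and all 79 matched. Values at 2 loci are not reported here. hg19 sequence was not used here. No 2 lists shared a peak with the same ends and fold. Tables were handled with pandas 2.3.3 and numpy 2.4.6 in Python 3.11.15, statistics with scipy 1.17.1 and plots with matplotlib 3.10.9.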

Additional observations from a re-analysis of the deposited data

How the results depend on the processing

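The 844 sites became 221 when all 3 lacZ libraries had to hold a peak, and between 265 and 1695 with 1 library left out. They stayed within 1.5 times under a −log10 q of at least 3 (831), in lists of equal length (926), with summits (898), after merging peaks within 500 bp (786) and with no DOC1 peak within 1 kb (737). The share with a DOC1 peak within 10 kb was 48.4% with summits, 35.6% after merging and 24.2% in lists of equal length. Leaving out 1 library gave 34.9 to 43.4%. Merging takes away the nearest pairs by construction, and shorter lists hold fewer DOC1 peaks. The share with another site within 50 kb was 21.9% in lists of equal length (the cause was not tested) and 6.79 to 28.6% with 1 library left out. The median percentile in lacZ 2 was 54.4 in lists of equal length, which leave its own list whole and change the sites. With 1 library left out the medians were 56.2 to 65.3 in lacZ 1, 47.1 to 53.0 in lacZ 2 and 53.5 to 61.6 in lacZ 3. The share on chromosome 19 stayed between 5.98% and 7.24% under all alternatives run. Shares by chromosome with 1 library left out were chosen after seeing the data. No paired analysis was possible because the sites are defined over all 6 lists at once and their count comes from no test. Total depth was not reconstructed, and its part in missing peaks was not tested.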

Other observations

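In windows of 5 Mb, a division chosen after the data were seen, the 844 sites fell into 360 of the 588 windows that held any CHD4 region, and 37 windows held 5 or more sites. The fullest was the window at 25 to 30 Mb of chromosome 6, which covers the histone gene cluster, with 14 sites among 48 recurrent lacZ regions (29.2%) and 22 regions of the mirrored kind. The windows at 0 to 5 Mb and 45 to 50 Mb of chromosome 19 followed with 12 sites each, among 68 and 56 recurrent lacZ regions. In the window at 115 to 120 Mb of chromosome 8, 7 of 14 recurrent lacZ regions (50.0%) were such sites and 7 regions were of the mirrored kind.

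The widest of the sites lay on chromosome 17 (16289866 to 16291018, 1153 bp), where the strongest peaks of lacZ 1 and lacZ 2 had summits 325 bp apart and folds of 5.45 and 6.15. Near chromosome ends, taken as within 5 Mb of the first or last CHD4 region, lay 12.2% of the sites, 14.2% of the recurrent lacZ regions with a DOC1 peak and 11.8% of all regions.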
